A study of Rattus norvegicus with 8 samples.

Results

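The elastic fiber genes described here are the 10 genes Eln, Fbn1, Fbn2, Fbln1, Fbln2, Fbln5, Efemp1, Efemp2, Emilin1 and Mfap4, each matched by name to 1 of the 32623 rat Ensembl genes counted in every library. They were measured by RNA sequencing of the epigastric outflow vein of an arteriovenous fistula (AVF), the surgical joining of a vein to an artery that is used as a hemodialysis access. The vein of Sprague Dawley rats was joined to the femoral artery and wrapped in a nanofiber scaffold of poly(lactic acid) and poly(lactic-co-glycolic acid), and the veins were taken at 21 days. In 4 libraries the scaffold was loaded with β-aminopropionitrile (BAPN), which blocks the lysyl oxidases (LOX and the LOX-like enzymes) as a family, and in 4 libraries it was a vehicle scaffold without drug. The labels number the libraries as replicates, and the methods of the study assign as many rats to RNA sequencing as there are libraries, so each library was taken as a separate rat. The BAPN group held 3 females (BAPN 1 to 3) and 1 male (BAPN 4), and the vehicle group 2 females (Vehicle 1 and 2) and 2 males (Vehicle 3 and 4). Both groups had surgery and a scaffold, so the comparison is of BAPN with vehicle and not of an operated with an unoperated vein. The comparison asks how the RNA of elastic fiber genes differed with a drug that blocks these enzymes, of which elastin is a substrate. The crosslinking of elastin in these veins is not among the data used here.

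Elastic fibers give a vessel wall its recoil. Smooth muscle cells and fibroblasts secrete soluble tropoelastin, which is laid down on a scaffold of fibrillin microfibrils with the help of fibulins, and lysyl oxidases then join its lysines into an insoluble polymer. Little new elastin is made in an adult vessel at rest, and the genes are switched on again when a wall is injured or remodeled.

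Library depth separated the groups. The total count ranged from 45039451 to 52241007 reads with BAPN and from 19548203 to 22442050 with vehicle, and depth and treatment therefore cannot be told apart. Expression is given as CPM, the reads of a gene per 1e+06 reads of the library after TMM scaling. Markers of the vein wall were present in all libraries. The sum of 8 smooth muscle markers was 1662 to 4225 CPM with BAPN and 3218 to 5977 CPM with vehicle, that of 8 fibroblast markers was 3579 to 5068 and 3937 to 7369 CPM, and that of 7 endothelial markers was 479 to 636 and 804 to 1533 CPM. The macrophage sum was 2914 to 3696 and 2112 to 3205 CPM. In whole veins, fewer cells of a type and less RNA per cell cannot be told apart, and the part of these cell types in the results that follow was not tested.

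Of the 10 genes, 9 passed the filter of a mean normalized count of at least 100 that the methods of the study set, and 8 of the 9 had lower mean expression with BAPN. Only Fbln1 fell by the test. edgeR, whose p-values were adjusted over all 11682 tested genes (FDR), called Fbln1 and no other member below 0.05, against 9.25% of all tested genes called lower and 16.8% called in either direction. limma-voom also called only Fbln1 (15.3% of tested genes called). An unadjusted p below 0.05 in edgeR was found for 3 members and for 35.8% of tested genes. The median log2 fold change of the 9 genes was -0.70, against 0.02 over all tested genes, and log2 fold changes below 0 made up 48.4% of all tested genes. The median of the 9 genes lay between -0.96 (without BAPN 2) and -0.48 (without Vehicle 4) when 1 library was left out, and was -0.41 among females alone. Fbln1 was also the only member for which every BAPN vein lay below every vehicle vein, a pattern seen in 11.9% of tested genes, and groups without overlap in either direction made up 24.7%. DESeq2 called 3 members, Fbn2, Fbln1 and Fbln2, all lower, where it called 15.1% of tested genes lower and 27.4% in either direction.

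**Figure D1:**
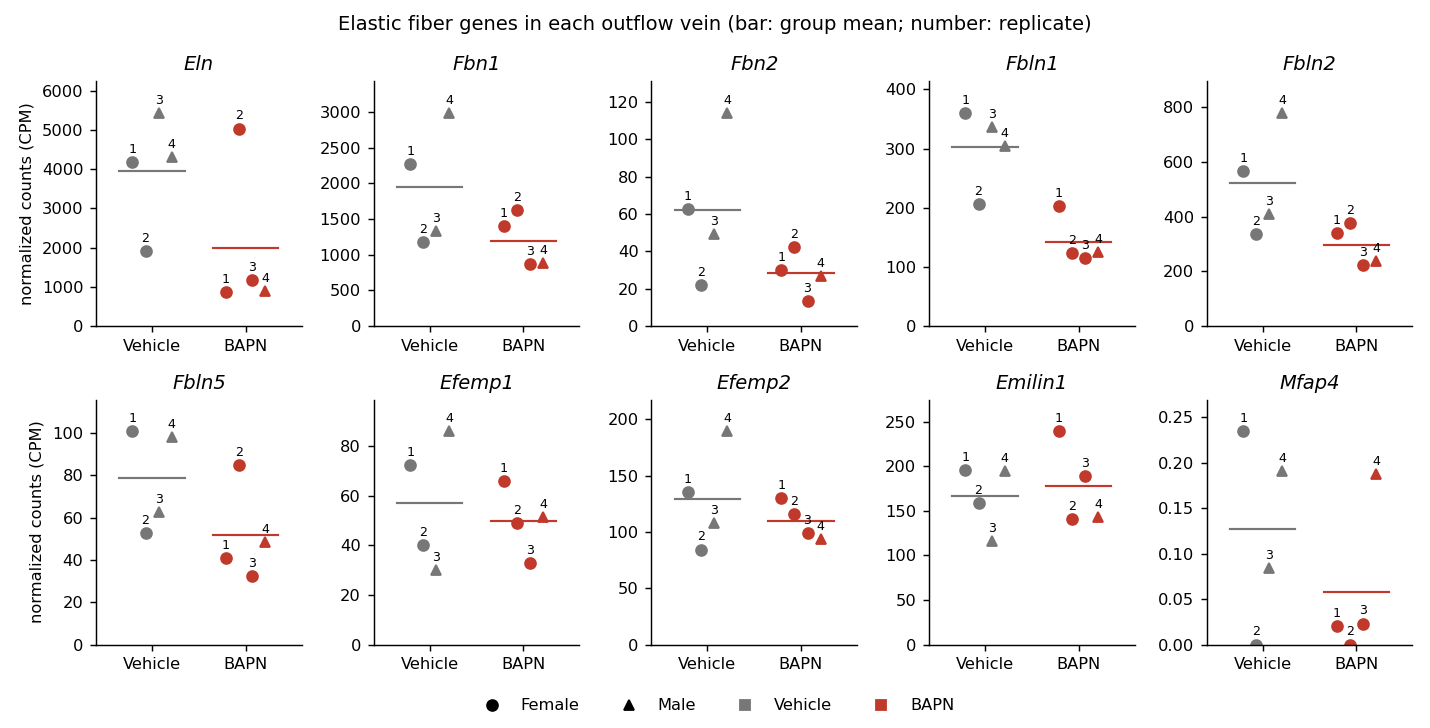
Normalized counts (CPM, linear axis from 0) of the 10 elastic fiber genes in each outflow vein, with vehicle in gray and BAPN in red, circles for females, triangles for males, bars for group means and the replicate number above each point. Eln in BAPN 2 stands at 5034 CPM above the other BAPN veins, at 877 to 1164 CPM, and Vehicle 2 is the lowest vehicle vein in 8 of the 10 panels.

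Eln (ENSRNOG00000001469) encodes tropoelastin, the precursor of the elastic core. It was at 877 CPM in BAPN 1, 5034 in BAPN 2, 1164 in BAPN 3 and 894 in BAPN 4. In the vehicle veins it was at 4186, 1914, 5429 and 4317 CPM in Vehicle 1 to 4. Thus 3 BAPN veins lay below every vehicle vein, while BAPN 2 lay above all vehicle veins but Vehicle 3. The mean was 1992 ± 2032 CPM for BAPN and 3962 ± 1475 CPM for vehicle (± SD of 4 libraries). edgeR gave a log2 fold change of -0.99 with an FDR of 0.26, and DESeq2 also gave an FDR of 0.26. limma-voom put the difference at -1.34 (95% interval -2.60 to -0.08, FDR 0.124). An exact two-sided permutation test of log2 CPM gave p = 0.114, where 0.0286 is the smallest p that 4 libraries against 4 allow.

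A single library decided this value. Without BAPN 2 the log2 fold change of Eln was -2.03 and edgeR called it (FDR 0.0236), where 6.43% of tested genes were called lower and 10.5% in either direction. In the other 7 fits that left out 1 library the FDR was between 0.178 and 0.458. Among females alone, where BAPN 2 is 1 of 3 BAPN libraries, the log2 fold change was -0.37 (FDR 0.789). BAPN 2 also differed from the other BAPN veins in its smooth muscle markers, whose sum was 4225 CPM there against 1662 to 2245 CPM in BAPN 1, 3 and 4. The vehicle veins did not show the same order. Vehicle 1, at 4186 CPM of Eln, had the lowest vehicle sum (3218 CPM). Vehicle 2, the lowest vehicle vein for Eln (1914 CPM), had a sum of 4422 CPM, above that of BAPN 2. Acta2, which encodes smooth muscle α-actin, was at 1311 CPM in BAPN 2, at 375 to 630 CPM in the other BAPN veins and at 563 to 1822 CPM with vehicle. Myh11, the smooth muscle myosin heavy chain, was at 684 CPM in BAPN 2, at 277 to 396 CPM in the others and at 1014 to 1540 CPM with vehicle. The fibroblast marker sum did not set BAPN 2 apart, at 4790 CPM there, 5068 CPM in BAPN 1 and 3579 to 4046 CPM in BAPN 3 and 4. Its genes went both ways, with Dpt (512 CPM) and Pdgfrb (368 CPM) highest and Pi16 (154 CPM) lowest in BAPN 2 among the BAPN veins. Clec3b hardly differed, at 92.9 CPM in BAPN 2 and 93.4 to 102 CPM in the other BAPN veins. The part of smooth muscle content in the value of Eln was not tested.

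**Figure D2:**
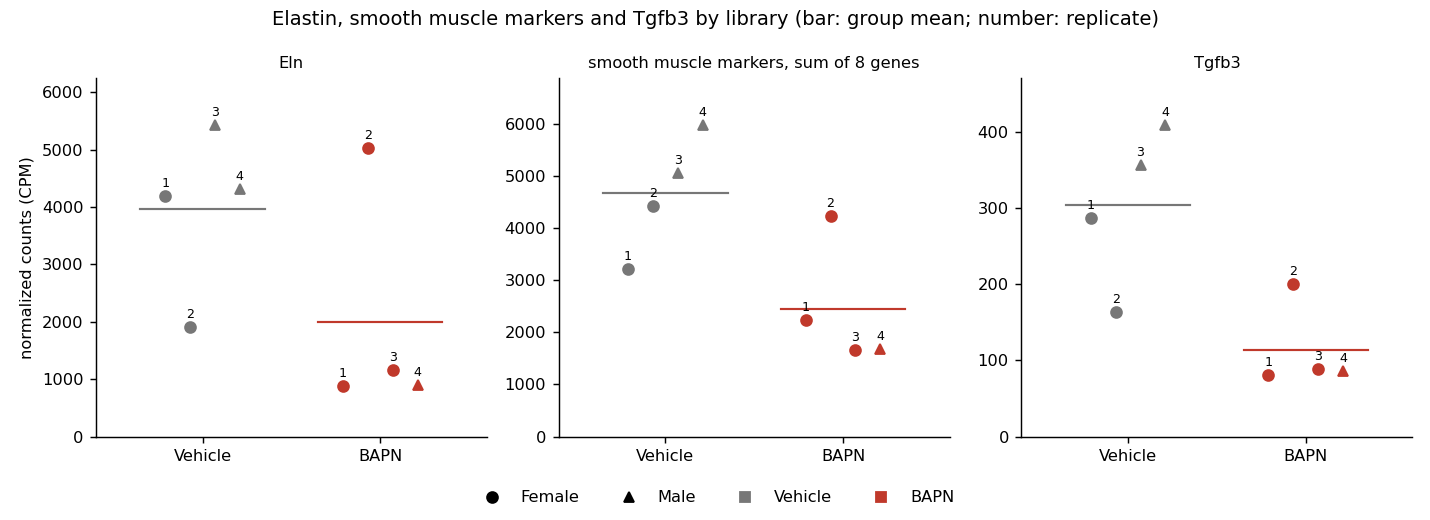
Normalized counts (CPM, linear axis from 0) of Eln, of 8 smooth muscle markers summed (Myh11, Acta2, Tagln, Cnn1, Smtn, Lmod1, Des and Myocd) and of Tgfb3 in each vein, with bars for group means. BAPN 2 is the highest BAPN vein in all 3 panels, at 5034, 4225 and 200.3 CPM. Tgfb3 is the gene closest in profile to Eln over these same veins, so its height in BAPN 2 is not a separate observation.

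The genes whose profile over the 8 veins was closest to that of Eln were Tgfb3, Map7, Ano1, Hsd11b2 and Hey2. Closeness is the root mean square difference of log2 CPM after each gene was centered on its mean, and it was 0.40 for Tgfb3 and 0.45 to 0.48 for the other 4. These genes were picked by closeness over these same veins, so a high value in BAPN 2 follows from the choice. Tgfb3, a TGF-β ligand, was at 200.3 CPM in BAPN 2, at 80.6 to 89.2 CPM in the other BAPN veins and at 163 to 409 CPM with vehicle. Ano1, a calcium-activated chloride channel of smooth muscle, was at 33.3 CPM in BAPN 2 against 9.81 to 13.2 CPM in the other BAPN veins. Among the members, Fbln5 (0.68) and Fbn2 (0.75) were closest to Eln, and Efemp1 (1.16) and Emilin1 (1.23) were the farthest of the tested members.

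The fibrillins form the microfibrils on which elastin is deposited. Fbn1 (ENSRNOG00000007302), the main fibrillin of the adult, was at 1405, 1631, 863 and 885 CPM in BAPN 1 to 4 and at 2264, 1182, 1331 and 2984 CPM in Vehicle 1 to 4. The BAPN females 1 and 2 lay above Vehicle 2 and 3, so the groups overlapped. Its log2 fold change was -0.70 (edgeR FDR 0.173), and the limma-voom interval ran from -1.42 to 0.11. The value for Fbn1 was -0.413 without Vehicle 4 and -0.407 among females alone. Fbn2 (ENSRNOG00000043219), the fibrillin of development, had far fewer reads. It was at 29.8, 42.6, 13.6 and 26.9 CPM with BAPN and at 62.7, 21.9, 49.5 and 114 CPM with vehicle, with Vehicle 2 below 3 of the 4 BAPN veins. This gave a log2 fold change of -1.14 (edgeR FDR 0.118, DESeq2 FDR 0.0451). Without Vehicle 2 edgeR called Fbn2 (-1.42, FDR 0.0383), and without Vehicle 4, its highest library, the value was -0.66 (FDR 0.298).

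Fbln1 (ENSRNOG00000014137) encodes fibulin-1, which is found in the elastic core and in basement membranes. It was at 203, 123, 115 and 125 CPM in BAPN 1 to 4 and at 360, 207, 336 and 305 CPM in Vehicle 1 to 4. All BAPN veins were lower than all vehicle veins, though BAPN 1 and Vehicle 2 were close to each other. The means were 141 ± 41.6 CPM for BAPN and 302 ± 67.4 CPM for vehicle (± SD of 4 libraries), and edgeR fitted a 2.13-fold lower expression. Its log2 fold change was -1.09 (standard error 0.23, edgeR FDR 0.0194, DESeq2 FDR 0.000141), and the exact two-sided permutation p was 0.0286. With 1 library left out, the log2 fold change lay between -1.32 and -0.998. Fbln1 then missed the threshold in 2 of 8 fits, those without BAPN 3 (FDR 0.0557) and without Vehicle 1 (FDR 0.0583). A fit that held sex as a covariate called it (FDR 0.0441), and that fit called 7.96% of tested genes and 4.63% lower. It was not called among females alone (-0.95, FDR 0.148), where 0.762% of tested genes were called and 0.462% lower.

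Fbln2 (ENSRNOG00000007338) encodes fibulin-2, which lies at the border of elastic fibers and in basement membranes. It was at 341, 375, 225 and 239 CPM in BAPN 1 to 4 and at 566, 335, 412 and 780 CPM in Vehicle 1 to 4. Vehicle 2 lay below BAPN 1 and 2, and the other vehicle veins lay above all BAPN veins. For Fbln2 the log2 fold change was -0.83 (edgeR FDR 0.0699, DESeq2 FDR 0.0179). Without Vehicle 2 edgeR called it (-0.99, FDR 0.0358). That fit called 3 of the 9 members lower and 11% of all tested genes lower, with 19% called in either direction.

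Fbln5 (ENSRNOG00000050539) encodes fibulin-5, which binds tropoelastin and guides it onto microfibrils. It was at 40.8, 84.9, 32.2 and 48.6 CPM in BAPN 1 to 4 and at 101, 52.9, 62.7 and 98.1 CPM in Vehicle 1 to 4. As for Eln, 3 BAPN veins lay below every vehicle vein and BAPN 2 lay among the vehicle veins. For Fbln5 the log2 fold change was -0.61 (edgeR FDR 0.198) and, without BAPN 2, -0.96 (FDR 0.0502).

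Efemp2 (ENSRNOG00000020587) encodes fibulin-4, which brings lysyl oxidase to elastin, and Efemp1 (ENSRNOG00000003553) encodes the related fibulin-3. Efemp2 was at 130, 116, 99.3 and 93.4 CPM in BAPN 1 to 4 and at 135, 84.3, 108 and 189 CPM in Vehicle 1 to 4. Efemp1 was at 66.1, 49.0, 33.0 and 51.3 CPM with BAPN and at 72.4, 40.3, 30.0 and 86.0 CPM with vehicle. The groups overlapped for both genes. In edgeR the log2 fold change was -0.24 for Efemp2 (edgeR FDR 0.483) and -0.20 for Efemp1 (FDR 0.691). The 95% intervals from limma-voom were -0.72 to 0.35 and -0.86 to 0.64, so that differences of these sizes remained possible in either direction. Both values changed sign without Vehicle 4, to 0.01 and 0.07.

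Emilin1 (ENSRNOG00000008246), whose product sits where elastin meets the microfibrils, was the only tested member with higher mean expression in BAPN-treated veins. It was at 239, 141, 189 and 143 CPM in BAPN 1 to 4 and at 196, 159, 117 and 195 CPM in Vehicle 1 to 4. Its log2 fold change was 0.10 (edgeR FDR 0.777, limma-voom interval -0.41 to 0.58), and it changed sign without BAPN 1 (-0.08) or Vehicle 3 (-0.04). Mfap4 (ENSRNOG00000002382), which encodes a microfibril-associated glycoprotein, had few reads. The counts were 1, 0, 1 and 9 reads in BAPN 1 to 4 and 5, 0, 2 and 4 reads in Vehicle 1 to 4. A count of 0 allows up to 0.0592 CPM in BAPN 2 and 0.148 CPM in Vehicle 2, taking 3 reads as the limit and covering counting error only. Mfap4 was not tested. The counting tool, strand setting and gene annotation behind these counts are not given in the sources used here, and whether they set this low count was not tested.

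**Figure D3:**
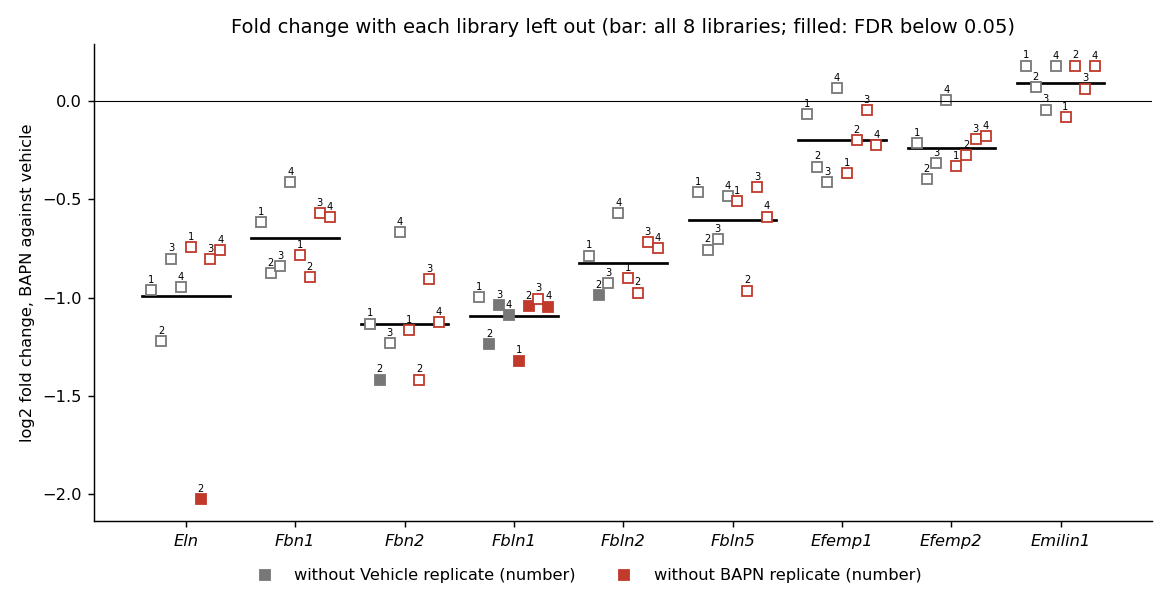
Log2 fold change of the 9 tested members with BAPN against vehicle when each library is left out in turn (gray squares, a vehicle library, and red squares, a BAPN library, numbered by replicate), with bars for all 8 libraries and filled squares for an FDR below 0.05 in edgeR. Eln moves from -0.99 to -2.03 without BAPN 2, while Fbln1 stays between -1.32 and -0.998.

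Within the vehicle group the members deviated mostly in the same direction, and within the BAPN group they were mixed. Relative to the mean of their own group, all 10 genes were above it in Vehicle 1 and in Vehicle 4, with median deviations of 0.27 and 0.63 on the log2 scale. None of the 10 was above it in Vehicle 2 (median -0.56), and 2 were in Vehicle 3 (median -0.23). In the BAPN group, 7 genes were above the mean in BAPN 1 and 7 in BAPN 2, 1 in BAPN 3 and 4 in BAPN 4. In BAPN 2 the deviations reached 1.78 for Eln.

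Ratios of reads within a library do not depend on the scaling between libraries, and they show how the other members stood relative to Eln. All 8 other tested members had a higher mean log2 ratio to Eln with BAPN, by 0.23 (Fbln1) to 1.43 (Emilin1). This is not particular to them, since the ratios share Eln as denominator and 97.8% of all other tested genes with a defined value also had a higher mean ratio. The groups overlapped for each of the 8, and BAPN 2 lay within or below the vehicle values throughout. For Emilin1 the ratio was 0.273, 0.0281, 0.163 and 0.16 Emilin1 reads per Eln read in BAPN 1 to 4, whereas the vehicle veins gave 0.0467, 0.0832, 0.0215 and 0.0452. For Efemp2 it was 0.148, 0.023, 0.0853 and 0.104 with BAPN and 0.0323, 0.0441, 0.0199 and 0.0438 with vehicle. BAPN 1, 3 and 4 thus lay above every vehicle vein for these 2 genes, and the same was so for Fbn1, Fbln2, Fbln5 and Efemp1, as it was for 83.9% of all other tested genes. For Fbln5 the margin was small, at 0.0277 in BAPN 3 against 0.0276 in Vehicle 2. No test was run on the ratios. The number of members with a higher ratio was 7 of 8 among females alone and also without BAPN 1.

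**Figure D4:**
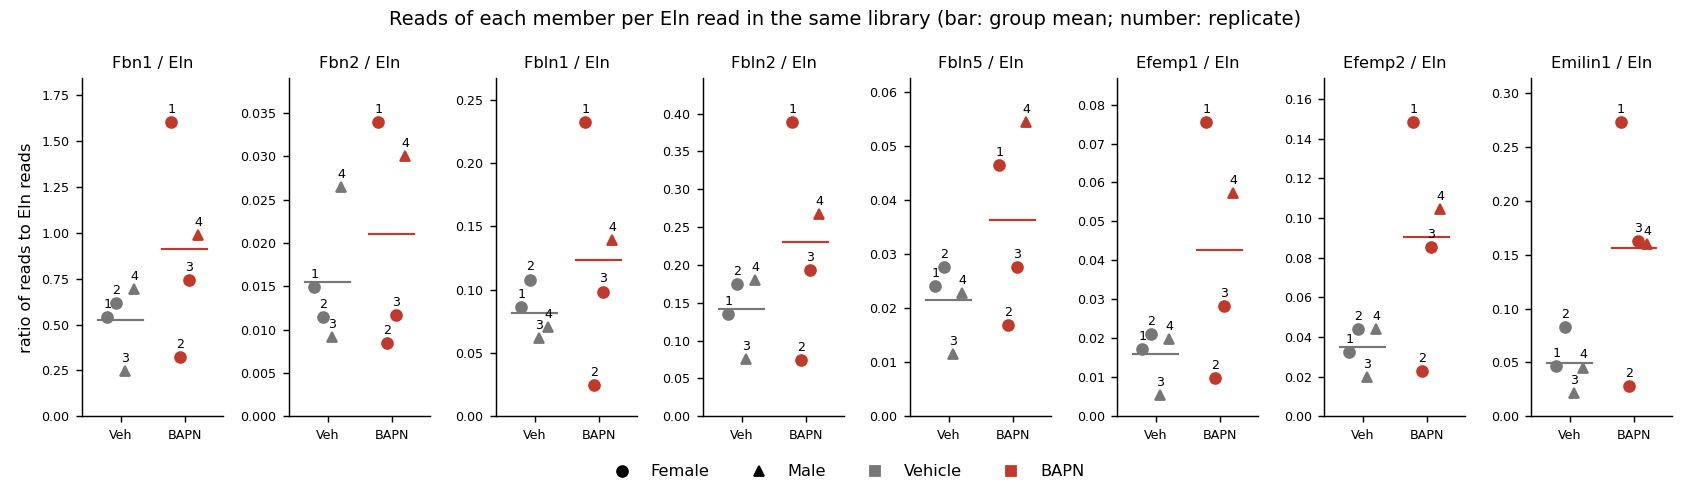
Reads of each of the 8 other tested members per Eln read in the same library (linear axes from 0), with vehicle in gray, BAPN in red and bars for group means. BAPN 2 lies within or below the vehicle range in every panel, and for all members shown but Fbn2 and Fbln1 the other 3 BAPN veins lie above all vehicle veins.

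Sex was examined because the groups were not balanced. The lowest p of an interaction of sex and treatment among the 9 members was 0.149, for Eln, and their FDRs in edgeR lay between 0.57 and 0.996. edgeR called 0 of the 11682 genes for this term (0% called), as did limma-voom, and 1442 genes (12.3%) had an unadjusted p below 0.05. With 1 BAPN male the term rests on a single library in that cell.

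Among 53 further genes of elastic fiber assembly, crosslinking, degradation and binding, 48 were tested. edgeR called 9 lower and 1 higher with BAPN, where it called 9.25% of all tested genes lower and 7.5% higher. DESeq2 called 14 lower and 2 higher, where it called 15.1% lower and 12.3% higher. The groups did not overlap for 7 lower and 1 higher gene, where 11.9% of all tested genes lay wholly below and 12.7% wholly above with BAPN. The median log2 fold change was -0.39, and it was -0.18 without Vehicle 4 and -0.14 among females alone. With sex as a covariate Mfap2 (FDR 0.0787), Ltbp3 (FDR 0.0934), Adamts10 (FDR 0.0619), Mmp14 (FDR 0.0942) and Tgfb3 (FDR 0.0816) lost their calls. Among females alone all 10 calls were lost, with FDRs from 0.0746 to 0.279 in edgeR. Thsd4 and Tnxb were not analysed here.

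Microfibril-associated glycoproteins and latent TGF-β binding proteins, which bind fibrillin, had log2 fold changes below 0 in all 6 tested genes, and 3 of these fell by the test, against 48.4% below 0 and 9.25% called lower over all tested genes. Ltbp4, which guides fibulin-5 and elastin onto microfibrils, was at 136, 142, 110 and 87.7 CPM in BAPN 1 to 4 and at 442, 233, 331 and 404 CPM in Vehicle 1 to 4. Its log2 fold change was -1.57 (standard error 0.23, edgeR FDR 0.00863), with no overlap between the groups and a call in all 8 fits that left out 1 library. Unlike for Eln and Fbln5, BAPN 2 lay below all vehicle veins for Ltbp4. Mfap2 (-1.17, FDR 0.0353) and Ltbp3 (-0.95, FDR 0.0409) overlapped between the groups, and each kept its call in 2 of the 8 fits, those without BAPN 2 or Vehicle 2. Mfap5 (-0.38, FDR 0.306), Ltbp1 (-0.60, FDR 0.333) and Ltbp2 (-0.27, FDR 0.772) did not pass the test. Without Vehicle 4 these values were -0.10, -0.15 and 0.44.

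Fbln7, another fibulin gene, fell, with means of 29.2 ± 13.2 CPM for vehicle and 6.71 ± 2.40 CPM for BAPN (± SD of 4 libraries). It was at 7.96, 9.47, 4.59 and 4.80 CPM in BAPN 1 to 4 and at 25.8, 11.9, 39.7 and 39.2 CPM in Vehicle 1 to 4, with no overlap. Its log2 fold change was -2.12 (standard error 0.43, edgeR FDR 0.0146), and all 8 fits that left out 1 library called it. Among females alone the value was -1.36 (FDR 0.123). Of the EMILIN and multimerin genes, Mmrn2, an endothelial matrix protein, fell (-1.13, edgeR FDR 0.0237). Both Mmrn2 and the endothelial marker sum were lower in every BAPN vein than in every vehicle vein, and the part of endothelial content was not tested. Of 5 tested ADAMTS and ADAMTS-like genes that bind microfibrils, Adamts10 fell (-0.88, FDR 0.0245), where edgeR called 9.25% of all tested genes lower. Mmrn2 lost its call without BAPN 3, BAPN 4, Vehicle 1 or Vehicle 4, and Adamts10 without BAPN 1, BAPN 3, BAPN 4 or Vehicle 1.

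All 5 lysyl oxidase genes had lower means with BAPN and none was called by edgeR, with an unadjusted p below 0.05 for Loxl1 and Loxl2. Of all tested genes, 48.4% had log2 fold changes below 0, 9.25% were called lower and 35.8% had an unadjusted p below 0.05. Loxl1, the family member tied most closely to elastin, was at 404, 496, 348.1 and 458 CPM in BAPN 1 to 4 and at 662, 497, 597 and 990 CPM in Vehicle 1 to 4. The groups did not overlap, although BAPN 2 and Vehicle 2 differed by little (log2 fold change -0.69, edgeR FDR 0.0623, DESeq2 FDR 0.0131). Of all tested genes, 11.9% lay wholly below with BAPN. Loxl2 (-0.89, edgeR FDR 0.0817, DESeq2 FDR 0.026), Loxl3 (-0.58, FDR 0.295) and Loxl4 (-0.50, FDR 0.251) overlapped between the groups. Loxl3 was at -0.077 without Vehicle 4 and Loxl4 at -0.21 without Vehicle 1. Without Vehicle 2 edgeR called Loxl1 (FDR 0.0351) and Loxl2 (FDR 0.0443), where it called 11% of all tested genes lower and 19% in either direction. Lox had a log2 fold change of -0.17 (FDR 0.678, limma-voom interval -0.76 to 0.55), which changed sign without Vehicle 4 (0.040) and among females alone (0.25).

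Of 9 tested proteases that cut elastin or act with those that do, 7 had a log2 fold change above 0. edgeR called 1 higher and 1 lower, where it called 7.5% of all tested genes higher and 9.25% lower. Their median log2 fold change was 0.74, against 0.02 over all tested genes, of which 48.4% were below 0. Mmp9, Mmp12 and Cela1 were highest of all veins in BAPN 4, at 644, 3361 and 89.4 CPM. They were lowest in Vehicle 4, at 21.6, 444 and 3.92 CPM. The other proteases above 0 did not have both. Ctss, the elastin-degrading cathepsin S of macrophages, rose, with means of 285 ± 65.8 CPM for vehicle and 581 ± 43.0 CPM for BAPN (± SD of 4 libraries). It was at 634, 532, 567 and 591 CPM in BAPN 1 to 4 and at 293, 366, 276 and 206 CPM in Vehicle 1 to 4, with no overlap (log2 fold change 1.03, standard error 0.19, FDR 0.0122). All 8 fits that left out 1 library called it. Macrophage markers were higher by 0.38 on the log2 scale of their sum, with overlap between the groups, and their part in the value of Ctss was not tested. Mmp14, which activates other metalloproteinases at the cell surface, fell (-0.78, FDR 0.0432), a call kept in 1 of the 8 fits, that without Vehicle 2. The call was also lost with the filterByExpr filter (FDR 0.0515) and when low counts were not filtered (FDR 0.0649).

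**Figure D5:**
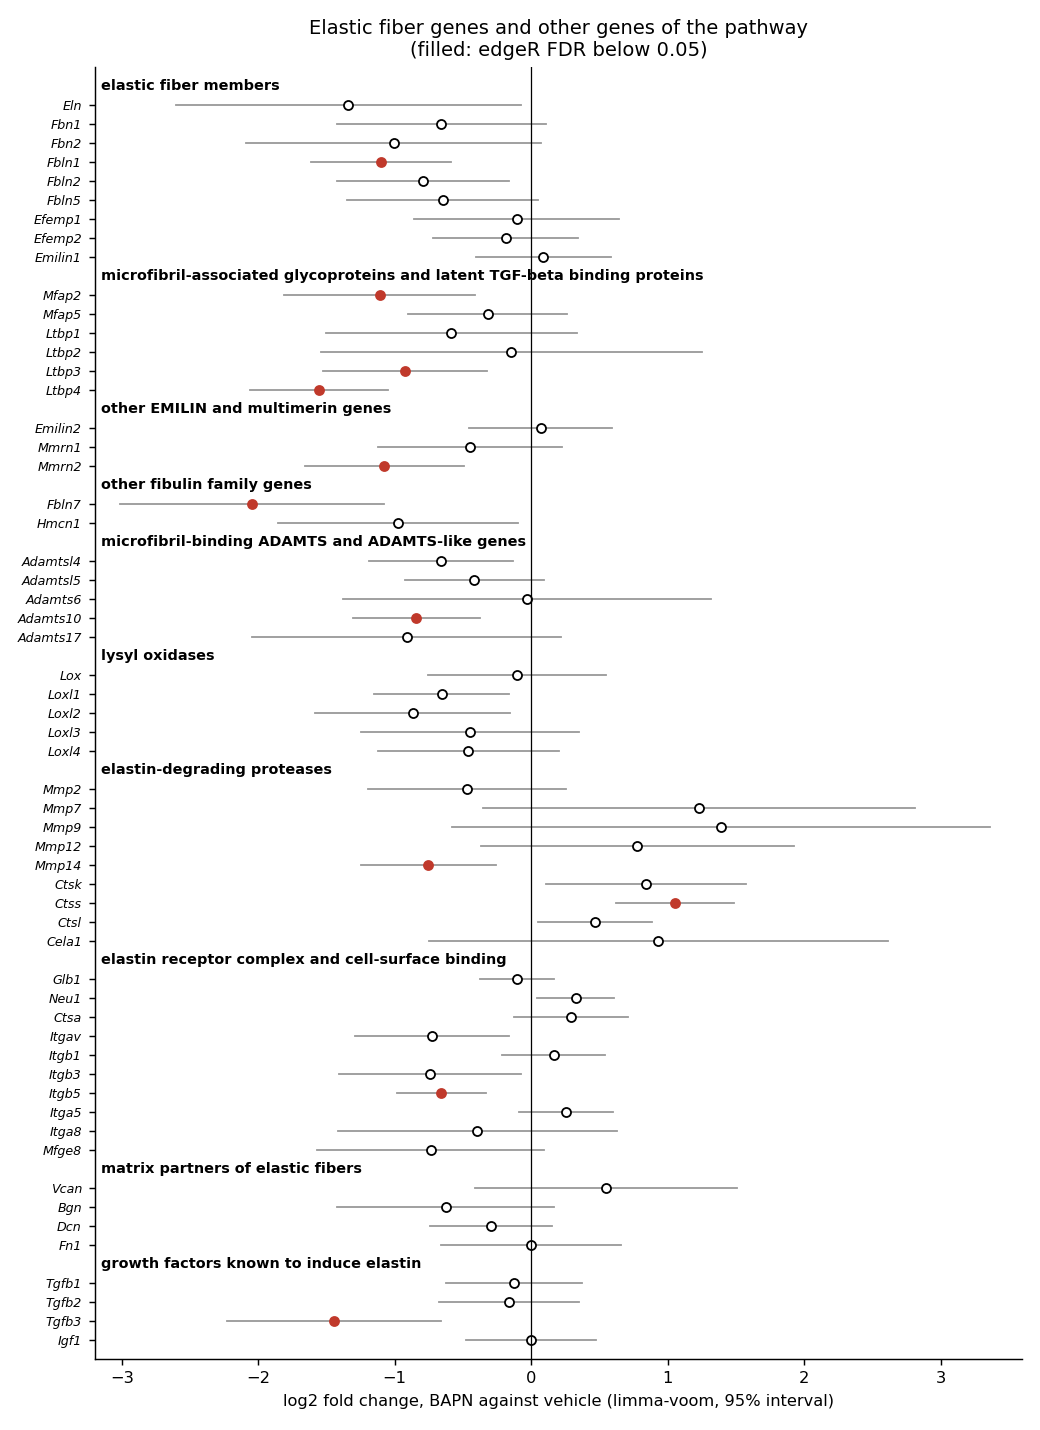
Log2 fold change of BAPN against vehicle with 95% intervals (limma-voom) for the 9 tested members and 48 further genes of the pathway, grouped by role, with filled points for an FDR below 0.05 in edgeR. Points of the members and of the microfibril genes lie mostly left of 0, and those of the elastin-degrading proteases mostly right of 0.

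Of 10 genes of the elastin receptor complex and of cell-surface binding, Itgb5, an integrin chain that binds fibulin-5, fell (-0.65, FDR 0.0242, no overlap), a call lost without BAPN 1, BAPN 3 or Vehicle 1. Of all tested genes, 9.25% were called lower and 11.9% lay wholly below with BAPN. None of the 4 tested matrix partners was called, and Fn1 (-0.06, FDR 0.905) and Bgn (-0.65, FDR 0.222) had the most reads of them. With 1 library left out, the value of Bgn ranged from -0.90 to -0.32. Of 4 growth factors known to induce elastin, Tgfb3 fell (-1.41, FDR 0.0318), with a call in 2 of the 8 fits that left out 1 library, those without BAPN 2 or Vehicle 2.

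The sequence upstream of the start is given for 1 member and 2 partners with lower values, Fbln2, Ltbp4 and Fbln7. The sequences are from a promoter table made from RefSeq (assembly GRCr8), in which 6 of the 10 members were matched. The promoters of Eln, Fbln1, Emilin1 and Mfap4 were not analysed here. Each is the 250 bases before the annotated start, written 5′ to 3′ on the strand of the gene. Capitals mark GC boxes (GGGCGG on either strand), the only one of 3 searched motifs that was found in these windows.
Fbln2, chr4:125261409-125261658, + strand: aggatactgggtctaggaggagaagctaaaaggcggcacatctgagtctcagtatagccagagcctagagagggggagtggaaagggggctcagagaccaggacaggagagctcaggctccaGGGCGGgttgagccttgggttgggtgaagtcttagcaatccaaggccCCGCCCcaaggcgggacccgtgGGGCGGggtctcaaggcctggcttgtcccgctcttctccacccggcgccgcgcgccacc
Ltbp4, chr1:91759808-91760057, - strand: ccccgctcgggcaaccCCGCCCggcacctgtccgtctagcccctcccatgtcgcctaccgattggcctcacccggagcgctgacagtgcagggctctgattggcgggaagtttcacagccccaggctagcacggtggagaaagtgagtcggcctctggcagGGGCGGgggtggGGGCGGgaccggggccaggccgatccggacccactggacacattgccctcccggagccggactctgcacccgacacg
Fbln7, chr3:136564575-136564824, + strand: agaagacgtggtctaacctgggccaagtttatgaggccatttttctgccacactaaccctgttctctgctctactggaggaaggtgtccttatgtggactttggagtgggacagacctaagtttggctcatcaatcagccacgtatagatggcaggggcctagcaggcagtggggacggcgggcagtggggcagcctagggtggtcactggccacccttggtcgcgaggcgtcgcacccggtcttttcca

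Fbln2 and Ltbp4 each held 3 GC boxes and Fbln7 held 0. Over all 33469 promoters of the table, 30.5% held at least 1 GC box in the same window, as did 4 of the 6 members with an entry. The TATA box (TATAAA) was found in 0 of the 6 and in 12.9% of all promoters, and the CArG box, the site of serum response factor, in 0 of the 6 and in 1.5% of all promoters. Both strands were searched, and the matches are descriptions of letters and not of binding sites.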

How the data were processed

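Total RNA of 8 outflow veins was depleted of ribosomal RNA, and stranded libraries were made and sequenced by the authors. The deposited files hold raw read counts, 1 whole number for each of 32623 genes, without normalization. The submitters' processing notes name bcl2fastq 2.17, Trim Galore and STAR. The counting tool, the strand setting and the genome build are not given in the sources used here, so reads shared by overlapping genes could not be told apart.

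Genes with a DESeq2 base mean of at least 100 were tested (11682 genes), as in the methods of the study. BAPN and vehicle were compared with edgeR 4.0.16 (TMM, quasi-likelihood F test, no covariates, p adjusted by Benjamini-Hochberg across every tested gene, FDR threshold 0.05) in R 4.3.3. The study names DESeq, and DESeq2 1.42.0 was an alternative. Standard errors and 95% intervals are from limma 3.58.1 (voom). Log2 CPM used a prior count of 2, and exact permutation tests went through all 70 arrangements. The steps were tested on simulated counts.

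Groups, sex and replicate numbers are from the labels. Nothing names batches, and no library was a second copy of another (chi-square over its degrees of freedom was 68.6 to 321 within groups). The replicate numbers were not taken to pair libraries, since the correlation of deviations of same-numbered libraries was between -0.26 and 0.27. The members and gene lists were chosen with earlier results of these data known. All members are named with their values. Of the further genes, the called ones, the microfibril and lysyl oxidase genes and, where a group had no call, the 2 with most reads are named. The 5 genes nearest to Eln and the markers Myh11, Acta2 and Dpt are also named. Other markers, Itgav, Mmp9, Mmp12 and Cela1 were added after their values were seen. Pecam1 was not analysed here. Promoter genes were chosen after the results were seen.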

Additional observations from a re-analysis of the deposited data

Results flagged for a closer look

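In groups of 4, a vein was taken to stand apart when its gap to the nearest other vein passed Dixon's 95% critical value. Of 80 groups examined, 7 had such a vein, where chance gives about 1 in 20. Eln reached 5034 CPM in BAPN 2, while the other BAPN veins ranged from 877 to 1164 CPM, and Tgfb3 reached 200.3 CPM there, against 80.6 to 89.2 CPM. Fbln1 was at 203 CPM in BAPN 1, against 115 to 125 CPM in the others. Mfap4 was at 0.188 CPM in BAPN 4, from 9 reads, and at 0 to 0.0231 CPM in the others. Fn1, the fibronectin gene, was at 8554 CPM in BAPN 3, against 10956 to 11284 CPM in the others. The sum of 6 keratinocyte markers was 16.9 CPM in BAPN 2 and 1.82 to 2.99 CPM in the others, and none of these genes passed the filter on low counts. The sum of 6 Schwann cell markers was 329 CPM in Vehicle 4 and 424 to 430 CPM in the other vehicle veins.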

How the results depend on the processing

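Over 18 alternatives for each of 32 named genes, 562 of 576 log2 fold changes kept their sign. Under DESeq2, 3202 genes, 3 members and 16 further genes were called, against 1957, 1 and 10 with edgeR. Sex as a covariate left 930 genes and 5 further genes, females alone (3 against 2) left 89 genes, 0 members and 0 further genes, and the replicate block called 556 genes and 4 further genes, of which Itgav was not among the 10 of the edgeR fit without it. With the block Fbln1 kept its call (FDR 0.0426), and Fbln7 (FDR 0.0692), Mmrn2, Mfap2, Ltbp3, Adamts10, Mmp14 and Tgfb3 lost theirs. The block shares only a number between libraries, and BAPN 3 alone correlated best with its own number. Leaving out 1 library gave 397 (without Vehicle 1) to 2215 (without Vehicle 2) called genes (leaving out BAPN 3 gave 745, BAPN 4 856, BAPN 2 1224, Vehicle 4 963 and Vehicle 3 1210), 0 (without BAPN 3 or Vehicle 1) to 3 (without Vehicle 2) members and 2 without BAPN 2, 3 (without BAPN 3 or Vehicle 1) to 15 (without Vehicle 2) further genes, and 7 to 8 members with a higher ratio to Eln. Further genes were 4 without BAPN 1 and 5 without BAPN 4 or Vehicle 4. With total counts only, calls over all genes were 1161 lower and 504 higher, against 1081 and 876, and the 1 member called was Fbln1. Thinning every library to the smallest total changed no count by more than 1.5 times. Signs changed among females alone for Efemp2 (0.068), Mfap5 (0.041), Ltbp2 (0.48) and Lox (0.25), and with the block for Fn1 (0.0064). With 1 library left out, log2 fold changes ranged from -0.41 to 0.068 for Efemp1, -0.39 to 0.0054 for Efemp2, -0.080 to 0.18 for Emilin1, -0.68 to 0.44 for Ltbp2, -0.38 to 0.040 for Lox and -0.25 to 0.11 for Fn1. The causes were not tested.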

Other observations

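Markers of other cell types in the veins were counted as summed CPM. The sum of 7 T cell markers was 371 to 457 CPM with BAPN and 301 to 511 CPM with vehicle, with Cd4 the largest part of it. Of these 7 genes, 6 had log2 fold changes above 0, the median was 1.33, and edgeR called 2 higher (7.5% of all tested genes) and DESeq2 4 (12.3% of all tested genes). The sum of 6 B and plasma cell markers was 155 to 219 CPM in BAPN 1 to 3, 6.66 CPM in BAPN 4 and 12.0 to 37.0 CPM in the vehicle veins, and of the 3 tested genes edgeR called 2 higher and DESeq2 3, against the same shares, while limma-voom called none (FDR 0.235 to 0.530). The sum of 6 adipocyte markers was 1063 to 2930 CPM with BAPN and 438 to 1709 CPM with vehicle, a sum made up mostly of Fabp4 (means of 1690 and 1040 CPM). The list pointed the other way, with 4 of 5 tested genes lower, a median log2 fold change of -1.61, 1 called lower by edgeR and 4 by DESeq2. Skeletal muscle markers summed to 16.1 to 30.7 CPM with BAPN and 18.9 to 73.4 CPM with vehicle, and of the 2 tested genes edgeR called neither and DESeq2 called Acta1 lower (FDR 0.0441, edgeR FDR 0.0843). Of the vein wall lists, edgeR called 5 of 8 smooth muscle, 2 of 8 fibroblast and 2 of 7 endothelial markers lower, against 9.25% of all tested genes. DESeq2 called 5, 5 and 4 of them lower, against 15.1%. Eln took 26.3% to 66.3% of the reads of the 10 elastic fiber genes with BAPN and 47.6% to 68.9% with vehicle.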
